A study of Mus musculus with 52 samples.

Results

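The cluster of mir-188, mir-362, mir-500, mir-501 and mir-532 is a group of 5 microRNA (miRNA) hairpins on mouse chromosome X, and its level was followed in the white fat around the gonad of mice from an allelic series of the huntingtin gene (Htt). Its members, mir-532 (MI0003206), mir-188 (MI0000230), mir-362 (MI0000763), mir-501 (MI0004703) and mir-500 (MI0004702), were taken by these miRBase precursor accessions and are 5 of the 1187 precursors in the deposited tables. Small RNA was sequenced from 6-month-old C57BL/6 mice of both sexes. Every knock-in mouse was heterozygous, with 1 wild-type Htt allele and 1 allele whose number gives its CAG repeats (Q20, Q80, Q92, Q111 and Q140, and the longest, Q175), and wild-type mice (WT) carried no such allele. There were 8 libraries of Q175, 7 of Q140, 7 of Q111, 7 of Q92, 8 of Q80, 8 of Q20 and 7 of WT, with 3 or 4 of each sex per genotype. In these models the repeat lies in the endogenous gene, so the allele is present in all tissues and not in fat alone. Q20 has a repeat of unexpanded length and served as the knock-in control for Q80 to Q140, and WT as the control for Q175. The labels placed WT and Q20 mice in shared housing and mice of each longer allele with their own kind, so a longer allele and its housing cannot be told apart. The identifiers of all 7 WT libraries hold Q20 after the library number, while their labels give wild type, which is used here.

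A miRNA is cut from a hairpin precursor, and 1 or both arms of the hairpin are loaded into Argonaute proteins, where bases 2 to 8 (the seed) pair with messenger RNAs and repress them. Hairpins inside an intron of a coding gene are often transcribed with their host. Each of the 5 lies in an intron of Clcn5, which encodes a chloride/proton exchanger of endosomes, on the same strand. miR-188 has been described as a switch between fat and bone fates of mouse marrow stromal cells, and miR-501 as a miRNA of activated muscle progenitors in mice. In human cells miR-532-5p targets RUNX3 and miR-362-5p targets CYLD.

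In the mouse build GRCm38.p6 the hairpins follow each other on the minus strand in the order mir-532 (chrX:7248402-7248497), mir-188 (chrX:7247989-7248056), mir-362 (chrX:7241982-7242046), mir-501 (chrX:7241243-7241351) and mir-500 (chrX:7237683-7237774). They span 10815 bases, with gaps of 345, 5942, 630 and 3468 bases between neighbours, and RefSeq places no other miRNA within 50 kb. Hairpin lengths recovered from the ratio of the count table to the RPKM table were 96, 68, 65, 109 and 92 bases in that order, and each equalled the RefSeq hairpin of the same name. Shared seeds, and the near-identity of miR-501-3p and miR-500-3p, bear on how the 5 levels can be read. The mature sequences from RefSeq used here follow, without miR-532-5p (capitals mark the seed).
miR-501-3p: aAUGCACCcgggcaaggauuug
miR-500-3p: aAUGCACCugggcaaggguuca
miR-362-3p: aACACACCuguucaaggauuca
miR-362-5p: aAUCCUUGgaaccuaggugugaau
miR-500-5p: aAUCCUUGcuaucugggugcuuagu
miR-501-5p: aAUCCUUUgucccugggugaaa
miR-188-5p: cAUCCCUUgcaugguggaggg
miR-188-3p: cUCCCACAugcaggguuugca
miR-532-3p: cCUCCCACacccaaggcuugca
Among these sequences, the seed AUGCACC is shared by miR-501-3p and miR-500-3p. The seed AUCCUUG is shared by miR-362-5p and miR-500-5p. Counted from the 5′ end with the base of miR-501-3p first, miR-501-3p and miR-500-3p differ by C9U, A18G, U21C and G22A and are the same at 18 of 22 positions. miR-362-3p and miR-500-3p are the same at 17 of 22 positions, 2 of the differences lying in the seed. How reads that fit more than 1 hairpin were assigned is not given in the sources used here, so the split of reads between mir-501 and mir-500 is uncertain. The estimated counts of all 5 members were whole numbers in all 52 libraries, and every member had counts in every library.

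The members differed widely in level although they share a host gene. Per length, mir-532 was the most abundant, with 3631 ± 777 RPKM (reads scaled to hairpin length and library total; SD, n = 52), a lowest library of 1564, a median of 3620 and a highest of 5709 RPKM. mir-501 followed with 1024 ± 400 RPKM (lowest 346, median 986, highest 1893). mir-362 reached 431 ± 136 RPKM (152, 425 and 986). The level of mir-500 was 207 ± 84.9 RPKM (52.5, 193 and 499), and that of mir-188 was 134 ± 41.9 RPKM (64.9, 126 and 265). mir-532 held 67.5% ± 7.39 of the cluster's counts and mir-501 21.7% ± 7.47, so the other 3 members held small shares. Whether shares of counts match amounts of RNA between different sequences was not tested. mir-188, the closest neighbour of mir-532, was the lowest of the 5 in mean RPKM.

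**Figure D1:**
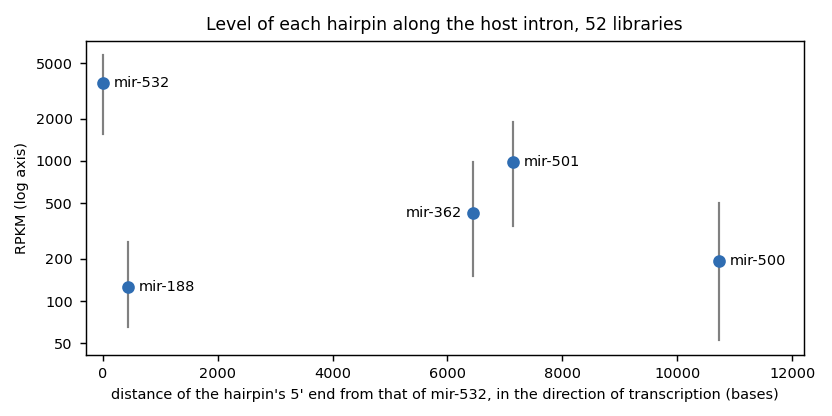
Level of each hairpin (RPKM, log axis; point, median of 52 libraries; line, lowest to highest library) against the distance of its 5′ end from that of mir-532 in the direction of transcription. The median of mir-532 is 3620 RPKM and that of mir-188, 441 bases on, is 126 RPKM.

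Precision followed abundance. The count of mir-532 ran from 662 to 2331 per library, that of mir-501 from 138 to 738, that of mir-362 from 27 to 192, that of mir-500 from 15 to 182 and that of mir-188 from 9 to 71. Within groups of 1 genotype and sex, the coefficient of variation of CPM (counts scaled to library size, with TMM factors) was 16.2% for mir-532, where counting error alone gives 2.87%, and 28.6% for mir-188, where counting error gives 18.2%. It was 20.4% for mir-501, 23.4% for mir-362 and 27.5% for mir-500, against counting errors of 5.32%, 10.4% and 13.4%.

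The 52 libraries held 1812067 to 5487948 estimated counts, and 2 of their properties touch the results. The library numbers fall into 2 series: the 37 libraries of Q20, Q80, Q92, Q111 and Q140 carry the token L1 (23 libraries, all 7 of Q111 among them) or L3 (14 libraries) in their column names, and the 15 libraries of Q175 and WT carry L5. The headers and labels do not say what this token stands for. In 2 libraries, Q140 female replicate 2 and Q140 male replicate 4, a score over 94 precursors that differed between the sexes in the L5 series lay on the side of the other sex. On the first principal component of all precursors 15 libraries stood apart with scores above 5, 14 of them from males. The files and the reference do not pair other accessions with miRNA names, so the marker lists of fat and of other cell types matched 0 precursors and the tissue label was not checked by markers here. In bulk tissue, fewer cells of a type and less RNA per cell cannot be told apart.

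**Figure D2:**
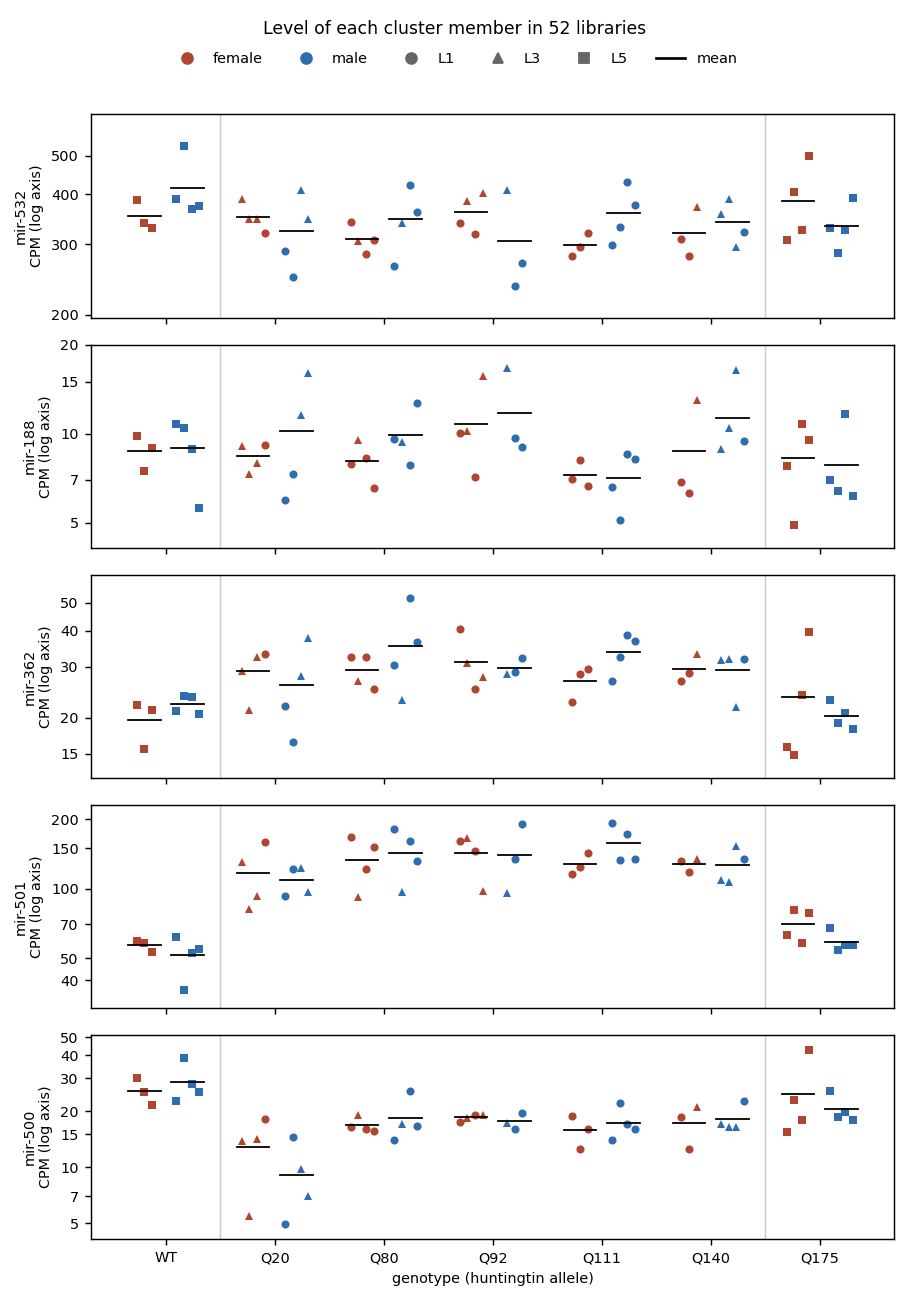
CPM (log axis) of each member in every library by genotype, with females left of males in each genotype, L tokens as symbols, and the mean of each group as a line; grey lines part the L5 series (WT, Q175) from the others. mir-501 lies between 81.5 and 192 CPM in L1 and L3 and between 36.3 and 81.0 CPM in L5, and mir-500 reaches its lowest value, 4.97 CPM, in a Q20 male.

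In Q175 fat none of the 5 members passed the test against WT. The test was edgeR's quasi-likelihood F test with Benjamini-Hochberg adjustment over all precursors tested, and a member is called where its adjusted p is under 0.05; 4.55% of the 308 precursors tested were called. No member had an unadjusted p under 0.05, against 24.0% of precursors, and 0 of the 5 were called by DESeq2 or by limma. mir-501 had a lowest, median and highest level of 53.9, 60.6 and 81.0 CPM in Q175 libraries, against 36.3, 54.7 and 61.7 CPM in WT libraries. The ranges overlapped, with 4 of 8 Q175 libraries above the highest WT library. The log2 change of mir-501 was 0.23 (SE 0.12, 95% interval -0.01 to 0.48, adjusted p = 0.228 by edgeR).

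mir-500 leaned the other way. Its level was 15.5, 19.2 and 42.6 CPM (lowest, median, highest) in Q175 libraries, against 21.7, 25.4 and 38.4 CPM in WT libraries. Of the 8 Q175 libraries, 5 lay below the lowest WT library and 1, female replicate 4, above the highest. The log2 change was -0.30 (SE 0.20, interval -0.72 to 0.13, adjusted p = 0.425 by edgeR). Without Q175 female replicate 4 it was -0.48 with an adjusted p of 0.0458 by edgeR, past the threshold; the same library also held the highest mir-362 level of the L5 series, 39.6 CPM. Without the 5 libraries of this fit above 5 on the first principal component, all 4 Q175 males and 1 WT male, the change was -0.12 (adjusted p = 0.902 by edgeR). The log2 changes of the other members were -0.12 for mir-532 (interval -0.40 to 0.16), -0.13 for mir-188 (interval -0.55 to 0.28) and 0.048 for mir-362 (interval -0.35 to 0.44). The difference of the Q175 effect between females and males was called for 0 of 5 members by edgeR, as for 0 of the 308 precursors; 0 members had an unadjusted p under 0.05, against 5.19% of precursors, and DESeq2 called 0.

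Among the expanded alleles compared with Q20, mir-500 was the one member with a call. It was higher in Q80 and in Q92 than in Q20, and its values in Q111 and Q140 were of like size without passing the test. Its mean level was 17.6 ± 3.48 CPM in Q80, 18.2 ± 1.24 CPM in Q92, 16.7 ± 3.2 CPM in Q111 and 17.8 ± 3.35 CPM in Q140, against 11 ± 4.85 CPM in Q20 (SD, n = 8, 7, 7, 7 and 8). The 4 comparisons share the same Q20 libraries. In Q20 the 4 females held 13.9, 5.5, 14.1 and 18.1 CPM and the 4 males 4.97, 14.6, 9.78 and 7.04 CPM, on counts of 15 to 65. The 29 libraries of the longer alleles ran from 12.5 to 25.5 CPM, all of them above the Q20 median of 11.9 CPM. The ranges overlapped all the same: 4 Q20 libraries lay below every library of a longer allele, and 11 of the 29 lay above the highest Q20 library.

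The log2 change of mir-500 was 0.71 in Q80 (SE 0.19, interval 0.33 to 1.10, adjusted p = 0.0483 by edgeR), and 1 of 5 members was called where 1.45% of the 345 precursors tested were. In Q92 it was 0.74 (SE 0.19, interval 0.35 to 1.14, adjusted p = 0.0383 by edgeR), 1 of 5 members against 4.06% of precursors. Both calls lay close to the threshold. In Q140 the change was 0.73 (SE 0.19, interval 0.34 to 1.13) with an adjusted p of 0.0555 by edgeR, so 0 of 5 members were called, against 0.290% of precursors; mir-500 alone had an unadjusted p under 0.05, against 18.8% of precursors, and DESeq2 called it. Without the 2 Q140 libraries whose sex score goes against the label, the change in Q140 was 0.79 with an adjusted p of 0.118 by edgeR. In Q111 it was 0.65 (SE 0.20, interval 0.25 to 1.04, adjusted p = 0.216 by edgeR), and no member was called where 0% of precursors were; 56 precursors (16.2%), mir-500 and mir-501 among them, had an unadjusted p under 0.05, DESeq2 called 0 members and limma on log2(RPKM + 1) called mir-500.

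The Q80 call was lost when any 1 of 31 of the 37 libraries was left out, and was kept without Q20 female replicate 1, 3 or 4, Q20 male replicate 2, Q80 male replicate 2 or Q140 female replicate 2 (log2 change 0.60 to 0.84). The Q92 call was lost without any 1 of 11 libraries: Q20 female replicate 2, Q20 male replicate 1, 3 or 4, Q80 male replicate 1 or 4, Q92 female replicate 1 or 3, Q92 male replicate 2, Q111 male replicate 1 or Q140 male replicate 2 (0.64 to 0.87). In both comparisons every one of the 37 omissions left mir-500 higher in the longer allele. By token, mir-500 averaged 17.4 ± 3.33 CPM in the 20 libraries of Q80 to Q140 and 12.6 ± 6.79 CPM in the 3 of Q20 in L1. In L3 it averaged 18.0 ± 1.53 CPM in 9 libraries of Q80, Q92 and Q140 and 10.1 ± 3.91 CPM in 5 of Q20. Fitted within L1 the log2 change was 0.51 in Q80 and 0.60 in Q92. Within L3, which held 2 libraries of Q80 and 3 of Q92, it was 0.99 in Q80 and 0.86 in Q92. None of the 4 passed the test, the lowest adjusted p being 0.236 by edgeR. With the token as a covariate the Q80 change was 0.67 (adjusted p = 0.106) and the Q92 change 0.72 (adjusted p = 0.0351), both by edgeR.

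The slope of mir-500 over repeat length was smaller once Q20 was left out. Over Q20 to Q140 it was 0.62 log2 units per 100 repeat units (SE 0.17, interval 0.28 to 0.97, adjusted p = 0.0869 by edgeR), and 0 of 5 members were called against 0.290% of precursors; mir-500 alone had an unadjusted p under 0.05, against 16.2% of precursors, and DESeq2 called it. Among Q80, Q92, Q111 and Q140 alone the slope was 0.038 (adjusted p = 0.995 by edgeR). In order of mean CPM the genotypes ran Q20, Q111, Q80, Q140, Q92, Q175 and WT. The gap between Q20 and Q111, 5.66 CPM, was the one gap between neighbours larger than the larger of their SDs.

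The other 4 members were not called in Q80, Q92, Q111 or Q140 against Q20. mir-501, which shares a seed with mir-500, was above Q20 in each of the 4 alleles in the fit without the token, with log2 changes of 0.31 in Q80 (interval -0.0051 to 0.62), 0.34 in Q92 (interval 0.013 to 0.66), 0.39 in Q111 (interval 0.061 to 0.71) and 0.19 in Q140 (interval -0.13 to 0.51). Its mean level was 138 ± 32.7 CPM in Q80, 142 ± 35.3 CPM in Q92, 145 ± 27.4 CPM in Q111 and 127 ± 16.6 CPM in Q140, against 113 ± 26.3 CPM in Q20. All Q111 libraries were in L1, where mir-501 was higher than in L3, and with the token as a covariate its change was 0.15 in Q111 (adjusted p = 0.921 by edgeR) and 0.15 in Q80 (adjusted p = 0.661 by edgeR). Within L3 alone its change in Q80 was -0.031, on 2 Q80 libraries of 92.2 and 96.7 CPM. mir-532, the most abundant member, lay near Q20 in all 4 alleles, with log2 changes of -0.03 in Q80, -0.0004 in Q92, -0.0052 in Q111 and -0.0051 in Q140 and interval bounds no further out than -0.26 and 0.24; within L1 alone the changes were 0.083 to 0.23. mir-362 had changes of 0.26, 0.16, 0.18 and 0.13 in Q80, Q92, Q111 and Q140, but -0.12 in Q80 and -0.015 in Q92 within L3 alone. mir-188 had changes of -0.037, 0.30, -0.34 and 0.12 in the same order, and its intervals were the widest beside those of mir-500. With the token as a covariate its change in Q111 was -0.045, and within L1 alone it was -0.037.

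**Figure D3:**
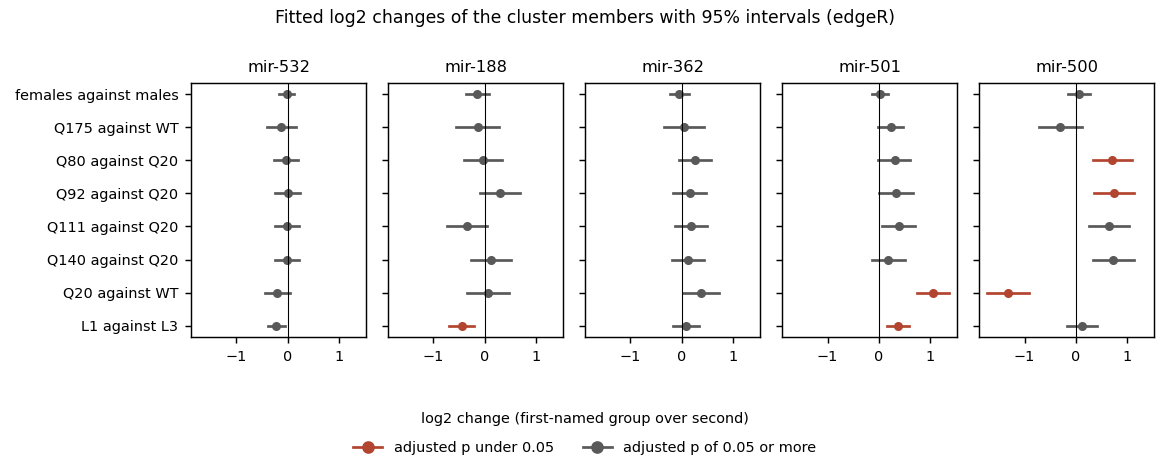
Fitted log2 change of each member (point) with its 95% interval (line) in 8 comparisons, the first-named group over the second; red marks an adjusted p under 0.05. mir-532 and mir-362 have no red interval, mir-188 has 1 (L1 against L3), mir-501 has 2 (Q20 against WT, L1 against L3) and mir-500 has 3 (Q80 and Q92 against Q20, Q20 against WT).

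No member of this cluster on chromosome X differed detectably between females and males, although many precursors in the fat did. None of the 5 was called in females against males, where edgeR called 48.3% of the 356 precursors tested; 0 members had an unadjusted p under 0.05, against 54.8% of precursors, and 0 were called by DESeq2 or by limma. The fat comes from around a different organ in each sex, so sex and site cannot be told apart. mir-532 had a lowest, median and highest level of 281, 330 and 498 CPM in the 25 females, against 236, 348 and 528 CPM in the 27 males. mir-501 had 53.2, 118 and 167 CPM in females, against 36.3, 109 and 192 CPM in males. For both members the ranges overlapped almost wholly.

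The intervals bound how far the sexes could differ. The log2 difference was -0.02 for mir-532 (interval -0.16 to 0.12), 0.024 for mir-501 (interval -0.14 to 0.19) and -0.043 for mir-362 (interval -0.23 to 0.14). It was 0.061 for mir-500 (interval -0.16 to 0.28) and -0.14 for mir-188 (interval -0.36 to 0.082). No member was called in the L5 series alone, in the L1 and L3 series alone, without the 2 Q140 libraries named above, or in any of the 52 fits that left out 1 library. Without the 15 libraries above 5 on the first principal component, mir-532 moved to -0.16 with an adjusted p of 0.0708 by edgeR.

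Among the comparisons fitted, the largest log2 changes of the cluster were those between Q20 and WT, 2 genotypes of unexpanded repeat length whose libraries belong to different series, so the allele and the series cannot be told apart. mir-501 was higher in Q20 and mir-500 lower, in opposite directions although the hairpins share a host gene and a seed. mir-501 had 81.5, 109 and 160 CPM (lowest, median, highest) in Q20 libraries, against 36.3, 54.7 and 61.7 CPM in WT libraries. The log2 change was 1.06 (SE 0.16, interval 0.75 to 1.38), a fold of 2.09, with an adjusted p of 2.95e-07 by edgeR. mir-500 had 4.97, 11.9 and 18.1 CPM in Q20 libraries, against 21.7, 25.4 and 38.4 CPM in WT libraries. Its log2 change was -1.32 (SE 0.20, interval -1.73 to -0.91), a fold of 0.4, with an adjusted p of 8.25e-07 by edgeR.

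For both hairpins the Q20 and WT libraries did not overlap. The share of all precursors without overlap between these genotypes was not counted. Of the 356 precursors tested 34.3% were called, and the 2 calls among 5 members lie near that share. Both calls were kept in all 52 fits that left out 1 library and in each sex alone. The largest adjusted p in 1 sex was 0.0287 by edgeR, for mir-500 in females. The summed level of mir-501 and mir-500 was 124 ± 30.3 CPM in Q20 and 81.1 ± 5.31 CPM in WT (SD, n = 8 and 7), and 7 of 8 Q20 libraries lay above the highest WT library. The difference of the sum was not tested. The log2 changes of the other members were 0.38 for mir-362 (interval 0.032 to 0.73, adjusted p = 0.0804 by edgeR), -0.20 for mir-532 (interval -0.45 to 0.054) and 0.073 for mir-188 (interval -0.34 to 0.48).

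The same split ran through the whole set of libraries and not through these 2 genotypes alone. mir-501 had 81.5, 132 and 192 CPM (lowest, median, highest) in the 37 libraries of L1 and L3, against 36.3, 58.1 and 81.0 CPM in the 15 libraries of L5, with no overlap. mir-500 had 4.97, 16.5 and 25.5 CPM in L1 and L3, against 15.5, 23.0 and 42.6 CPM in L5, and here the ranges overlapped. The ratio of mir-501 counts to mir-500 counts, which does not depend on library scaling, was 8.83 ± 3.02 in L1 and L3 (range 4.85 to 18.7, n = 37), against 2.58 ± 0.775 in L5 (range 0.945 to 4.05, n = 15). Each library thus fell on the side of its series by this ratio. The ratio pairs the 2 members with opposite changes between Q20 and WT. Other precursors, or pairs of them, were not examined for such a split, so it is not shown to be particular to these 2. Within the series it was 8.12 ± 2.67 in Q80, 7.8 ± 1.82 in Q92, 9.02 ± 2.66 in Q111 and 7.29 ± 1.43 in Q140, against 11.6 ± 4.02 in Q20. In the other series it was 3.03 ± 0.652 in Q175, against 2.06 ± 0.57 in WT, and 6 of 8 Q175 libraries lay above the highest WT library.

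**Figure D4:**
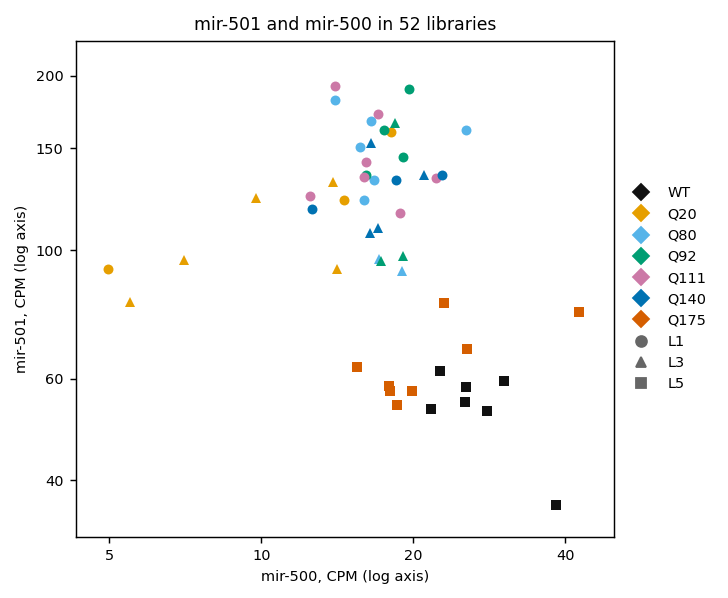
Level of mir-501 against that of mir-500 (CPM, both axes log) in the 52 libraries, coloured by genotype, with L tokens as symbols. The 15 L5 libraries (squares, WT and Q175) lie at or below 81.0 CPM of mir-501 and at or above 15.5 CPM of mir-500; 4 Q20 libraries lie left of all others, at 4.97 to 9.78 CPM of mir-500.

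The libraries of L1 and L3 in the larger series also differed in the cluster, a comparison made after values had been seen. With genotype and sex as covariates, edgeR called mir-188 lower in L1 than in L3 (log2 change -0.45, SE 0.12, adjusted p = 0.0146) and mir-501 higher (0.38, SE 0.10, adjusted p = 0.0152), 2 of 5 members against 9.86% of the 345 precursors tested. mir-188 had 5.11, 7.9 and 12.7 CPM (lowest, median, highest) in the 23 L1 libraries, against 7.33, 10.4 and 16.7 CPM in the 14 L3 libraries. mir-501 had 92.8, 135 and 192 CPM in L1, against 81.5, 102 and 166 CPM in L3. The ranges of both overlapped. The mir-501 call was lost without Q80 female replicate 2 (or Q92 male replicate 1), with 0.33 as the lowest change over the omissions. mir-532 had a change of -0.22 (interval -0.38 to -0.058, adjusted p = 0.0809 by edgeR). It was called in 6 of the 37 fits that left out 1 library, and under 1 alternative setting. mir-500, whose calls in Q80 and Q92 against Q20 lay close to the threshold, had a change of 0.12 (interval -0.17 to 0.41).

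Within groups the 5 hairpins did not rise and fall as 1 unit. The mean of each group of 1 genotype and sex was subtracted from log2 CPM. Over the 52 libraries mir-532 then had a Pearson correlation of 0.47 with mir-362, 0.36 with mir-188, 0.32 with mir-500 and -0.19 with mir-501. That between mir-501 and mir-500 was 0.26. The correlation of mir-532 with mir-500 was 0.80 in the 15 L5 libraries and 0.10 in the 37 libraries of L1 and L3. Its correlation with mir-501 was 0.00 in L5 and -0.25 in L1 and L3. The token was not subtracted, and the groups of Q20, Q80, Q92 and Q140 hold both L1 and L3 libraries. These values are a description, and the part of depth, token and scaling in them was not tested. Among 243 precursors with a mean of at least 10 CPM, those most like mir-532 were MI0000165 (r of 0.776), MI0000689 (0.739) and MI0004155 (0.720), whose names the files and the reference do not pair. mir-362 stood at rank 41, mir-500 at rank 69 and mir-501 at rank 169 on this list; mir-188, with a mean of 9.1 CPM, was below its minimum. The 3 hairpins of the cluster on the list thus correlated less with mir-532 than many precursors outside it. The 3 precursors most like mir-532 averaged 885, 1498 and 175 CPM, against 27.6 for mir-362, 18.7 for mir-500 and 111 for mir-501. Counting error is larger at low counts, and its part in these ranks was not tested.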

How the data were processed

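Small RNA libraries were made from total RNA (miRNeasy) of frozen fat, per the labels' protocols; the submitters' processing notes name CASAVA 1.8.2. For the aligner, counting program, miRBase release and build, a name is not given in the sources used here. As deposited by the authors, the tables hold estimated counts for 1187 precursors in 52 libraries, 89.1% of them whole within 0.0001, and RPKM values (scaled by the authors to hairpin length and library total). Estimated counts were rounded to whole numbers. Totals per library were 1812067 to 5487948, and counting error is given beside the spread.

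The whole table was tested, for precursors reaching 10 counts in 7 or more libraries of the fit, with edgeR 4.0.16 in R 4.3.3 (TMM, quasi-likelihood F test, robust; Benjamini-Hochberg; threshold 0.05). Q175 was fitted with WT (15 libraries), Q80 to Q140 with Q20 (37 libraries), both with sex as a covariate, and females against males and Q20 against WT over 52. Alternatives used DESeq2 1.42.0 and limma 3.58.1. SE is the log2 change over the root of F. On simulated data with known changes the test was checked first. The labels do not state that libraries come from separate animals, so p-values may measure only the spread between libraries. Replicate numbers did not pair libraries. The members, lists and tests were chosen with earlier results of these data known; all 5 members are named in each comparison, with the 3 precursors most like mir-532. Names of members come from the rule that chose them; sequences and positions are RefSeq's (GRCm38.p6, 5 of 5 hairpins matched), introns GENCODE's. Precursors on chromosome X as a class are not analysed here, for want of names.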

Additional observations from a re-analysis of the deposited data

Results flagged for a closer look

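Of 50 sets of 4 libraries (1 member in 1 genotype and sex) examined for a library far from the rest by Dixon's 95% critical value, 4 had one, where chance gives about 1 in 20. mir-532 was at 528 CPM in WT male replicate 2, and at 368 to 390 CPM in the other WT males. mir-188 was at 11.7 CPM in Q175 male replicate 3, and at 6.17 to 7 CPM in the other Q175 males. mir-362 was at 21.8 CPM in Q140 male replicate 3, and at 31.6 to 31.8 CPM in the other Q140 males. mir-500 was at 22.8 CPM in Q140 male replicate 4, 1 of the 2 libraries whose sex score goes against the label, and at 16.4 to 17 CPM in the other Q140 males.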

How the results depend on the processing

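The calls of mir-501 and mir-500 in Q20 against WT were kept under all alternatives run; mir-532 was also called there with a minimum of 50 counts (-0.30), by limma (-0.45 and -0.44) and without Q20 male replicate 3 (-0.28), and mir-362 without WT male replicate 3 or Q20 male replicate 2 (up to 0.44). In females against males and in the Q175 effect by sex, 0 of 5 members were called under every alternative. For Q80 against Q20, 1 member was called (mir-500), and 0 with DESeq2 size factors (0.74), with no filter (0.77), with a minimum of 50 counts (0.76), without the 5 most abundant precursors (0.77), with the L token as a covariate (0.67), in females (0.49) or males alone and in L1 (0.51) or L3 alone (0.99), both token fits chosen after values were seen; DESeq2 and limma kept it, and single omissions gave 0 to 1 member. For Q92, 1 member was called (mir-500), and 0 in females (0.58) or males alone (1.02) and in L1 (0.60) or L3 alone (0.86); single omissions gave 0 to 1. For Q111, 0 members were called, and 1 by limma on log2(RPKM + 1) or log2(RPKM + 10), with mir-500 at 0.90 and 0.83. For Q140, 0 were called, and 1 by DESeq2, with DESeq2 size factors, with a minimum of 50 counts, by limma with both pseudocounts and without the 5 most abundant precursors (mir-500 between 0.78 by DESeq2 and 0.93 by limma on log2(RPKM + 10), and higher by limma on log2(RPKM + 1)). Single omissions gave 0 to 1 there, with a call without Q20 female replicate 4 or male 2, Q80 female 2 or 3 or male 1 or 3, Q92 female 1 or male 1, 2 or 3, Q111 female 1 or male 2, or Q140 male 1 or 3. The slope had 0 calls, and 1 (mir-500) by DESeq2 (0.64) and limma (0.85 and 0.79); omissions gave 0 to 1, with a call without Q20 female replicate 4 or Q80 male replicate 3. Q175 against WT had 0, and 0 to 1 over omissions. L1 against L3 had 2 calls, 1 with a minimum of 50 counts (mir-501, mir-188 being filtered out) and with limma on log2(RPKM + 10), 0 with no filter, limma on log2(RPKM + 1), females or males alone, and 1 to 3 over omissions. The limma fits used RPKM without TMM factors. In Q80 against Q20 the median log2 change of all precursors tested was 0.21 and 0.20 by limma, against -0.03 by edgeR. There mir-532 was at 0.21 by limma, against -0.03 by edgeR, so limma's mir-500 values in Q80 include a shift shared by many precursors. The cause of the changes in calls between settings was not tested, and fits of 1 sex or token hold fewer libraries.

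Replicate numbers did not pair libraries: the median correlation of deviations was 0.007 between same-numbered libraries of different groups and 0.011 between others. With a replicate block, 0 members were called in Q80 (mir-500 at 0.71, adjusted p = 0.0653 by edgeR) and in Q92 (0.75, adjusted p = 0.0636 by edgeR). No called value changed sign: of 504 values not called before or after a change of setting, 94 changed sign, up to 0.31 in size before and 0.25 after, and of 1502 such values over single omissions 147 did, up to 0.35 before and 0.13 after. mir-188, with 9 to 71 counts a library, was left out by the minimum of 50 counts in most comparisons.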
